A study of Mus musculus with 6 samples.

Results

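Fibroblast growth factor signalling in satellite cells was described through 10 genes given by symbol. They were the ligand gene *Fgf2*, the receptor genes *Fgfr1*, *Fgfr2*, *Fgfr3* and *Fgfr4*, and the feedback inhibitor genes *Spry1*, *Spry2*, *Spry4*, *Spred1* and *Dusp6*. All 10 were found among the 54115 genes of the table, and all 10 passed the filter on low counts, which kept 17152 genes. The rule, a list of symbols, used no measured value, but the list was chosen with earlier results of these data known.

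The cells were freshly isolated satellite cells from uninjured hindlimb muscle of C57BL/6J mice, sorted as positive for α7-INTEGRIN and CD34 and negative for CD31, CD11b, SCA-1 and CD45. Pax7WT mice carry wild-type *Pax7*, and Pax7KR mice are homozygous for a germline lysine-to-arginine change, made with CRISPR/Cas9, at an acetylation site of the transcription factor PAX7. The mutation is present in every cell that expresses PAX7, from development on, and all cells of both genotypes went through dissociation and sorting. The labels give 3 biological replicates per genotype and no number of mice per library, so p-values measure the spread between these 6 libraries. The comparison asks whether transcript levels in satellite cells differ with this substitution. The paper reports a further acetylated lysine of PAX7, which the substitution leaves in place.

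FGF ligands bind receptor tyrosine kinases together with heparan sulphate, and the activated receptors signal through adaptors and RAS to the kinase ERK. ERK activity induces genes that damp the same pathway: Sprouty and SPRED proteins act on steps between receptor and ERK, and DUSP6 removes the activating phosphates from ERK. In muscle, FGF2 drives satellite cells out of quiescence, and *Spry1* is known as a brake that helps cycling satellite cells to become quiescent again. The libraries measure mRNA only, and neither receptor nor ERK phosphorylation was measured.

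The part of a receptor that decides which FGF it binds is set by alternative splicing in the third immunoglobulin loop. For *Fgfr1*, 6 annotated coding transcripts run through the whole receptor, and each uses either the IIIb or the IIIc exon.

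The libraries held 17822367 to 27908054 reads assigned to transcripts. All 10 satellite cell markers were detected at means of 137 to 1724 TPM (reads corrected for transcript length and scaled to the same total in each library), with *Chodl*, a membrane lectin gene, the highest, and none passed an unadjusted p of 0.05. *Pax7* itself was read at 1666, 1506 and 1480.1 CPM (reads scaled to a common library size by TMM factors) in Pax7WT and at 1409.8, 1460.4 and 1637 CPM in Pax7KR, which checks the cell type but not the labels, since a base substitution need not alter the level. Of the lists of other cells, summed TPM was 121 to 153 in Pax7WT and 135 to 195 in Pax7KR for 9 endothelial genes, 371 to 716 and 680.5 to 1125 for 4 erythroid genes, 617 to 684 and 642 to 743 for 7 fibro-adipogenic genes, 168 to 218 and 176 to 206 for 6 smooth muscle and pericyte genes, and 12.1 to 15.5 and 11.1 to 14.0 for 9 immune genes. All 9 endothelial and all 4 erythroid genes were higher in Pax7KR, with median log2 fold changes of 0.40 and 0.73. All 6 smooth muscle and pericyte genes were lower, with a median of -0.18. None of the genes of those lists passed an unadjusted p of 0.05. Of 8 immune genes tested, at means of at most 6.25 TPM, 4 were higher and 4 lower. Among them 2 passed that p by edgeR, against 4.68% of all tested genes, and 3 were without overlap, against 10.3%. Their part in the results below was not tested. In such bulk libraries fewer cells of a type and less RNA per cell cannot be told apart. The summed TPM was 30.5 to 61.8 and 41.3 to 44.7 for 5 tenocyte genes, 28.5 to 42.3 and 22.9 to 47.2 for 4 Schwann cell genes, 60.7 to 76.7 and 57.3 to 83.9 for 9 myofibre genes, and 143 to 197 and 154 to 182 for 9 genes of myogenic commitment and cycling. Some sums were mostly 1 gene. The highest mean was 623 TPM in the fibro-adipogenic list, where the lowest was 0.722, and 143 TPM in the list of commitment and cycling.

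No difference between Pax7WT and Pax7KR passed the test in any of the 10 genes. The adjusted p of edgeR's quasi-likelihood test was at least 0.992 for each of them, against a background in which 0 of 17152 genes (0%) passed the adjusted cut-off of 0.1. At an unadjusted p of 0.05 the count was 0 of 10 genes, against 803 genes (4.68%) in the whole table. Without replicate 1 of Pax7WT it was 2, *Spry4* (edgeR p 0.00492, log2 fold change 0.39) and *Fgfr3* (p 0.0293, 0.50), against 824 of 16791 genes tested in that fit. Without replicate 3 of Pax7KR it was 1, *Fgf2* (edgeR p 0.0295, -0.23), against 955 of 16887 genes. The adjusted p of these genes in those fits was at least 0.846. By DESeq2, which called 30 of 17138 genes (0.175%), each of the 10 had an adjusted p of 0.999. The log2 fold changes ran from -0.13 to 0.27 with a median of 0.09, and 8 of the 10 were above 0, where 49.0% of all tested genes were, with a median of -0.00375. Without replicate 2 of Pax7KR the count above 0 was 5 with a median of 0.0288, without replicate 2 of Pax7WT it was 6 with a median of 0.0279, and without replicate 1 of Pax7WT it was 9 with a median of 0.15, while the edgeR length offset gave 9 and 0.14. The 10 genes share libraries and so are not independent counts of a direction.

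**Figure D1:**
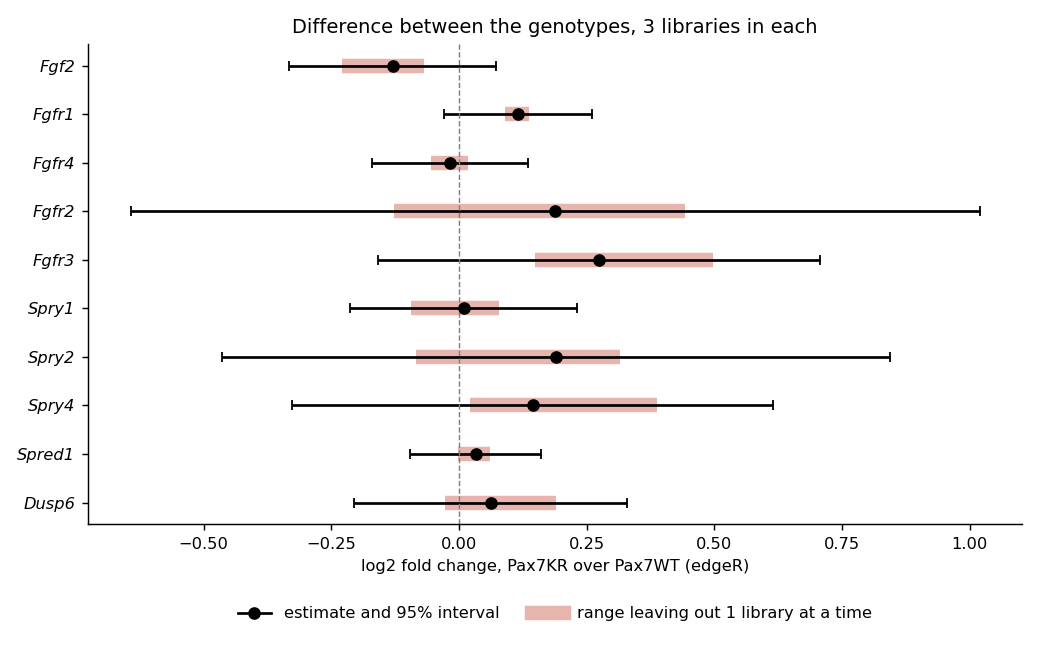
Log2 fold change of Pax7KR over Pax7WT for each gene (x axis, edgeR), with the 95% interval as a line and, as a pale bar, the range of estimates when 1 library at a time is left out. Every interval includes 0, and *Fgfr1*, *Fgfr4* and *Spred1* have the narrowest ones.

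Levels fell into separate tiers. Over the 6 libraries the mean was 1026 ± 106 TPM (SD) for *Spry1*, 836 ± 34.9 TPM for *Fgfr4* and 812 ± 67.7 TPM for *Fgfr1*, which ranked 135, 160 and 162 among the 54115 genes. These 3 genes made up 93.8% to 95.1% of the summed TPM of the 10. *Fgfr1* was 14.4-fold above the next gene, *Spry2* at 56.2 ± 14.2 TPM, and *Spred1* followed at 44.0 ± 2.94 TPM. *Spred1* was in turn 2.78-fold above *Fgf2* at 15.8 ± 2.23 TPM, and the order ended with *Spry4* at 13.5 ± 2.70, *Dusp6* at 10.8 ± 1.45, *Fgfr2* at 6.10 ± 2.42 and *Fgfr3* at 4.65 ± 1.88 TPM. Those steps, from *Fgfr1* to *Spry2* and from *Spred1* to *Fgf2*, were where neighbours in the order had ranges that did not overlap. Summed over all transcript models, *Fgfr4* was above *Fgfr1* in 3 of 6 libraries, while *Spry1* was above *Fgfr4* in 6 of 6. Among coding transcripts *Fgfr4* was higher. *Fgfr4*-201 stood at 667 to 733 TPM. Full-length coding *Fgfr1* stood at 396 to 467 TPM with the IIIc exon and 31.6 to 46.5 TPM with IIIb.

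**Figure D2:**
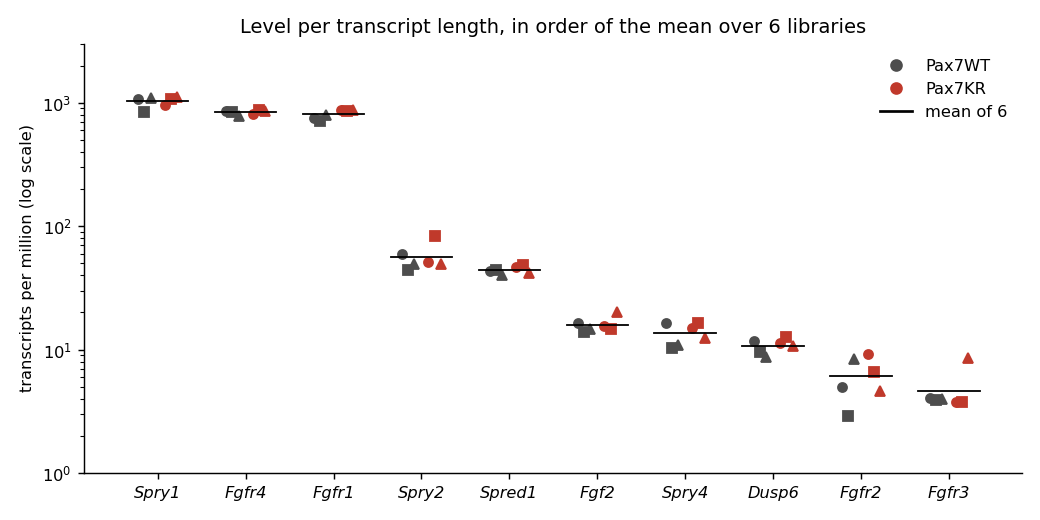
Level of each gene in TPM (y axis, log scale) in each library, ordered by the mean over 6 libraries (black line). Circles, squares and triangles are replicates 1, 2 and 3. *Spry1*, *Fgfr4* and *Fgfr1* lie between 715 and 1118 TPM in every library, and the other genes lie below 84 TPM.

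Promoters are shown for 3 of these genes, *Spry1* and *Fgfr4* as the highest inhibitor and receptor with a window used here. *Dusp6* is the inhibitor with a match to the homeobox core among the windows used. Windows of 300 bases, 250 before and 50 from the annotated start onward, were taken from RefSeq on GRCm38.p6. Those used were 9 windows of 8 of the 10 genes. Capitals mark TAAT, the core that homeobox factors such as PAX7 read, or CCGGAA, the core read by ETS factors downstream of ERK, each searched on both strands (TAAT reads ATTA on the other), and the letters do not overlap one another. Their positions are chr3:37639697-37639996, plus strand, for *Spry1*, chr13:55152568-55152867, plus strand, for *Fgfr4*, and chr10:99262981-99263280, plus strand, for *Dusp6*.
*Spry1* promoter: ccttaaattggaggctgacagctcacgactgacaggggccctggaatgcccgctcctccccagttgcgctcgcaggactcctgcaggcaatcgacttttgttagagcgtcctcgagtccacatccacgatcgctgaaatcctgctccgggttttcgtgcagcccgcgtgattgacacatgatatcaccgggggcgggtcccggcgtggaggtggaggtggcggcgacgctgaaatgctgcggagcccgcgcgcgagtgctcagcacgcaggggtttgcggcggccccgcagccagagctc
*Fgfr4* promoter: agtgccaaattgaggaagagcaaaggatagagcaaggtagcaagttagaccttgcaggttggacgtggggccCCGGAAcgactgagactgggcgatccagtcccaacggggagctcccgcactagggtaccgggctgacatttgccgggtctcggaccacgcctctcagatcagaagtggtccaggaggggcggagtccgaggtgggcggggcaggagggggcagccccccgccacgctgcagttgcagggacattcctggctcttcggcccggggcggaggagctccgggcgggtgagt
*Dusp6* promoter: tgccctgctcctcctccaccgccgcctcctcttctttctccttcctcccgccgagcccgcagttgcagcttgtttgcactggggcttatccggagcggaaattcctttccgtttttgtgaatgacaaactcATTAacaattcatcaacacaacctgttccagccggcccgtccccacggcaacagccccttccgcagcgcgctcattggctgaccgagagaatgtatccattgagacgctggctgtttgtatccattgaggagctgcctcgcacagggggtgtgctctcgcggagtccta

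The *Spry1* window held none of these letters. The *Fgfr4* window held CCGGAA 178 bases before the start, and the *Dusp6* window held TAAT, on the other strand, 119 bases before the start. Among the 8 genes whose windows were used, TAAT was found in 2, *Dusp6* and *Fgfr2*, where 58.0% of 32851 RefSeq promoters of the same length held it. The palindrome TAATTA, which contains TAAT, was found in 0 of 8, against 5.29% of all promoters, and CCGGAA was found in 2, *Fgfr4* and *Spry2*, against 14.9%. These are matches of letters in windows at the start, and say nothing of sites elsewhere.

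The ligand gene *Fgf2* (ENSMUSG00000037225) lies at chr3:37348346-37410108 on the plus strand, 229838 bases upstream of *Spry1*. It was read at 51.0, 44.0 and 50.1 CPM in Pax7WT and at 42.2, 40.4 and 50.3 CPM in Pax7KR. Replicates 1 and 2 of Pax7KR were the lowest of the 6 libraries, replicate 3 was at the level of the wild type, and the groups overlapped. *Fgf2* had a log2 fold change of -0.13 (SE 0.09, 95% interval -0.33 to 0.07), an edgeR adjusted p of 0.992.

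On the length-corrected scale *Fgf2* leaned the other way. Its TPM was 16.3, 13.8 and 14.8 in Pax7WT and 15.4, 14.6 and 20.04 in Pax7KR, a ratio of mean levels of 1.12 where the ratio of mean CPM was 0.915. The average length of its transcripts, weighted by their estimated levels, was 5185 bases in Pax7WT and 4474 bases in Pax7KR. By library it was 5047, 5077 and 5432 bases in Pax7WT and 4648, 4673 and 4102 bases in Pax7KR, without overlap. The main coding transcript *Fgf2*-208 stood at 14.4, 12.5 and 14.0 TPM in Pax7WT and 12.7, 11.8 and 14.3 TPM in Pax7KR, and those ranges overlapped. Its share of *Fgf2* TPM was 88.4%, 90.5% and 94.6% in Pax7WT and 82.4%, 81.0% and 71.5% in Pax7KR, without overlap and not tested. In replicate 2 of Pax7KR the coding transcript *Fgf2*-204 was given 2.55 TPM from an estimated 33.5 reads. In replicate 3 of Pax7KR the short retained-intron transcript *Fgf2*-207 was given 4.16 TPM from an estimated 5.16 reads, against 0 TPM in 3 of the other libraries. It was given 1.81 TPM from 2.29 reads in replicate 1 of Pax7KR and 1.02 TPM from 1.045 reads in replicate 2 of Pax7WT. The shares and average lengths thus depend in part on a few estimated reads. With transcript length as an offset the sign of the *Fgf2* fold change turned, to 0.10 by both edgeR and DESeq2, with no call in either. *Nudt6*, a gene antisense to *Fgf2*, was read 165 to 217 times per library, and 8.50% of the 31-base stretches of *Fgf2* transcripts also occur in *Nudt6*.

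*Fgfr1* (ENSMUSG00000031565, chr8:25513654-25575718, plus strand), a receptor for FGF2, was read at 1493, 1433 and 1532 CPM in Pax7WT and at 1594, 1585 and 1647 CPM in Pax7KR. Every Pax7KR library was above every Pax7WT library, the only gene of the 10 for which the groups did not overlap. Across all tested genes, 5.14% were without overlap and higher in Pax7KR and 5.19% without overlap and lower, so the count of 1 in 10 stands beside a background of 10.3%. The log2 fold change was 0.11 (SE 0.07, 95% interval -0.03 to 0.26), a fold of 1.08 that could lie between 0.979 and 1.20, with an edgeR p of 0.111 unadjusted and 0.992 adjusted. It stayed between 0.09 and 0.14 whichever library was left out. By TPM the ratio of mean levels was 1.15, but TPM carries no library factor, and the median gene of 15950 compared in the same way stood at a ratio of 1.04.

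*Fgfr4* (ENSMUSG00000005320, chr13:55152640-55168759, plus strand), the receptor gene characteristic of the myogenic lineage, was read at 1397, 1361 and 1274 CPM in Pax7WT and at 1261, 1337 and 1384 CPM in Pax7KR. The 2 groups covered nearly the same range. *Fgfr4* had a log2 fold change of -0.02 (SE 0.07, 95% interval -0.17 to 0.13), which bounds a change to between 0.889 and 1.10 times the wild-type level. Together *Fgfr1* and *Fgfr4* made up 99.2% to 99.6% of the TPM of the 4 receptor genes in every library. The *Fgfr1* part of receptor TPM was 46.7%, 45.9% and 50.2% in Pax7WT and 51.3%, 49.3% and 50.01% in Pax7KR, and these ranges overlapped. Non-coding models count in these parts. Coding transcripts took 56.5% to 62.9% of *Fgfr1* TPM and 82.6% to 86.0% of *Fgfr4* TPM.

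*Fgfr2* (ENSMUSG00000030849) and *Fgfr3* (ENSMUSG00000054252, chr5:33721674-33737068, plus strand), whose proteins are better known from epithelia, cartilage and bone, were the lowest of the 10 genes, above 40.4% and 37.2% of the genes tested by TPM. *Fgfr2* was read at 8.60, 4.63 and 10.6 CPM in Pax7WT and 12.7, 6.83 and 7.80 CPM in Pax7KR, from 82 to 290 reads per library, and the groups overlapped over most of their range. Those reads include 0 to 48.1 per library estimated for *Fgfr2*-217, a transcript model that runs over chr7:130162451-133123350. Of the 31-base stretches of *Fgfr2* transcripts, 2.69% also occur in *Ctbp2*. The log2 fold change of *Fgfr2* was 0.19 (SE 0.35), with a 95% interval of -0.64 to 1.02 that is the widest of the 10 genes. *Fgfr3* was read at 7.28, 5.14 and 4.68 CPM in Pax7WT and at 6.91, 6.91 and 6.95 CPM in Pax7KR, from 91 to 198 reads. The 3 Pax7KR values lay within the Pax7WT range, and the log2 fold change was 0.27 (SE 0.20, 95% interval -0.16 to 0.71), the largest of the 10. Of the 31-base stretches of *Fgfr3* transcripts, 14.9% also occur in other genes, chiefly in the antisense model *G630022F23Rik*, which was assigned 0 reads. Both intervals include 0 and a difference of the size measured for *Fgfr1*.

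Most full-length coding *Fgfr1* carried the IIIc exon. Its part of the full-length coding TPM was 92.5%, 92.6% and 93.0% in Pax7WT and 92.1%, 90.9% and 92.5% in Pax7KR. The IIIb exon took the rest, 7.31% ± 0.257 (SD, n = 3) in Pax7WT and 8.17% ± 0.839 (SD, n = 3) in Pax7KR, with replicate 2 of Pax7KR the highest at 9.11% and the groups overlapping. In the forms with IIIb, transcripts *Fgfr1*-213 and *Fgfr1*-214, the exon of the first immunoglobulin loop was absent by annotation.

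That loop is coded by a 267-base cassette exon at chr8:25555508-25555774, and the receptor without it is a known shorter form. The exon was present in 49.9%, 50.7% and 52.1% of the full-length coding TPM in Pax7WT and in 50.1%, 47.8% and 47.4% in Pax7KR. Long and short forms were thus close to equal in every library, and the groups overlapped through replicate 1 of each. These parts were estimated by salmon and were not tested. An exact two-sided permutation test of 3 libraries against 3 cannot give a p below 0.1. Coding transcripts took 56.5% to 62.9% of all *Fgfr1* TPM, the rest being retained-intron and other non-coding models, and *Fgfr4* came from 1 coding transcript, *Fgfr4*-201, at 82.6% to 86.0%.

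**Figure D3:**
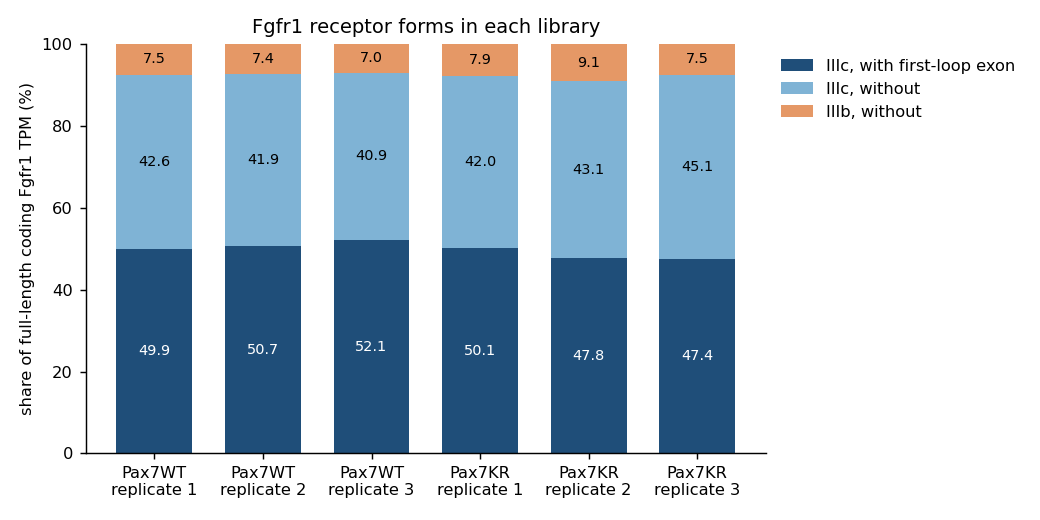
Share of full-length coding *Fgfr1* TPM (y axis, percent) in each library, split by the exon of the third loop (IIIc or IIIb) and by the presence of the exon of the first loop. IIIb takes 7.03% to 9.11% and the first-loop exon is present in 47.4% to 52.1%.

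Sprouty transcripts were nearly all *Spry1* (ENSMUSG00000037211, chr3:37639947-37644598, plus strand), which took 91.5% to 94.8% of the TPM of the 3 Sprouty genes. *Spry1* was read at 1357, 1094 and 1405 CPM in Pax7WT and at 1165, 1309 and 1405 CPM in Pax7KR. Replicate 2 of Pax7WT was the lowest library, and replicate 3 of each genotype had nearly the same level. The log2 fold change was 0.01 (SE 0.10), and its 95% interval of -0.21 to 0.23 bounds a change to between 0.863 and 1.17 times the wild-type level. Of the 31-base stretches of *Spry1*, 23.1% also occur in *Gm42922*, an uncharacterised gene model on the other strand that was assigned 42 to 66 reads.

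The library low in *Spry1* was also low in a list of immediate-early and dissociation response genes. The list includes *Fos* and *Egr1* as well as *Hspa1a* and *Dnajb1*, and follows dissociation as well as ERK activity. Summed over its 21 genes, TPM was 35247, 21647 and 36420 in Pax7WT and 29705, 33804 and 29288 in Pax7KR. Their mean log2(CPM + 1) was 8.89 in replicate 2 of Pax7WT and 9.39 to 9.82 in the other libraries. Replicate 2 of Pax7WT was the lowest in that sum, in 5 of the 10 genes and in none of them the highest, and replicate 1 of Pax7WT was the highest in 5. Replicate 3 of Pax7KR was next lowest in that sum at 29288 TPM, yet among the highest in *Spry1* at 1405 CPM. Replicate 2 of Pax7WT also had the fewest reads, 17822367. Without replicate 2 of Pax7WT the log2 fold change of *Spry1* was -0.09. The parts of dissociation and of read depth in these levels were not tested.

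*Spry2* (ENSMUSG00000022114, chr14:105891947-105896819, minus strand), a Sprouty with the same kind of action, was read at 68.4, 50.9 and 57.7 CPM in Pax7WT and at 55.2, 90.7 and 56.3 CPM in Pax7KR. Replicate 2 of Pax7KR stood above the other libraries, and the remaining 2 Pax7KR libraries lay inside the wild-type range. The log2 fold change of 0.19 (SE 0.25, 95% interval -0.46 to 0.84) became -0.08 without that library. The same library had the highest summed endothelial TPM, 195 against 121 to 164 in the others, whose part in the *Spry2* level was not tested.

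*Spry4* was read at 46.8, 29.5 and 31.2 CPM in Pax7WT and at 40.2, 44.3 and 34.7 CPM in Pax7KR. Replicate 1 of Pax7WT was the highest library and replicates 2 and 3 the lowest, so the Pax7KR values lay within the wild-type range. The difference was 0.14 on the log2 scale (SE 0.20, 95% interval -0.33 to 0.61).

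*Spred1* (ENSMUSG00000027351, chr2:117121374-117182279, plus strand), which brings the RAS inhibitor neurofibromin to the membrane, was among the steadiest genes measured here. It was read at 138, 140.2 and 135 CPM in Pax7WT and at 139.6, 148 and 135 CPM in Pax7KR, 1.09-fold from the lowest to the highest library. Its log2 fold change was 0.03 (SE 0.06), and its 95% interval of -0.10 to 0.16 was the narrowest of the 10 genes.

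*Dusp6* (ENSMUSG00000019960, chr10:99263231-99267489, plus strand), the ERK phosphatase gene often used as a readout of ERK activity, was read at 18.1, 15.0 and 13.6 CPM in Pax7WT and at 16.1, 16.3 and 16.5 CPM in Pax7KR. The Pax7KR libraries lay close together, inside the wild-type range. *Dusp6* had a log2 fold change of 0.06 (SE 0.12, 95% interval -0.21 to 0.33), from 265 to 493 reads per library.

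**Figure D4:**
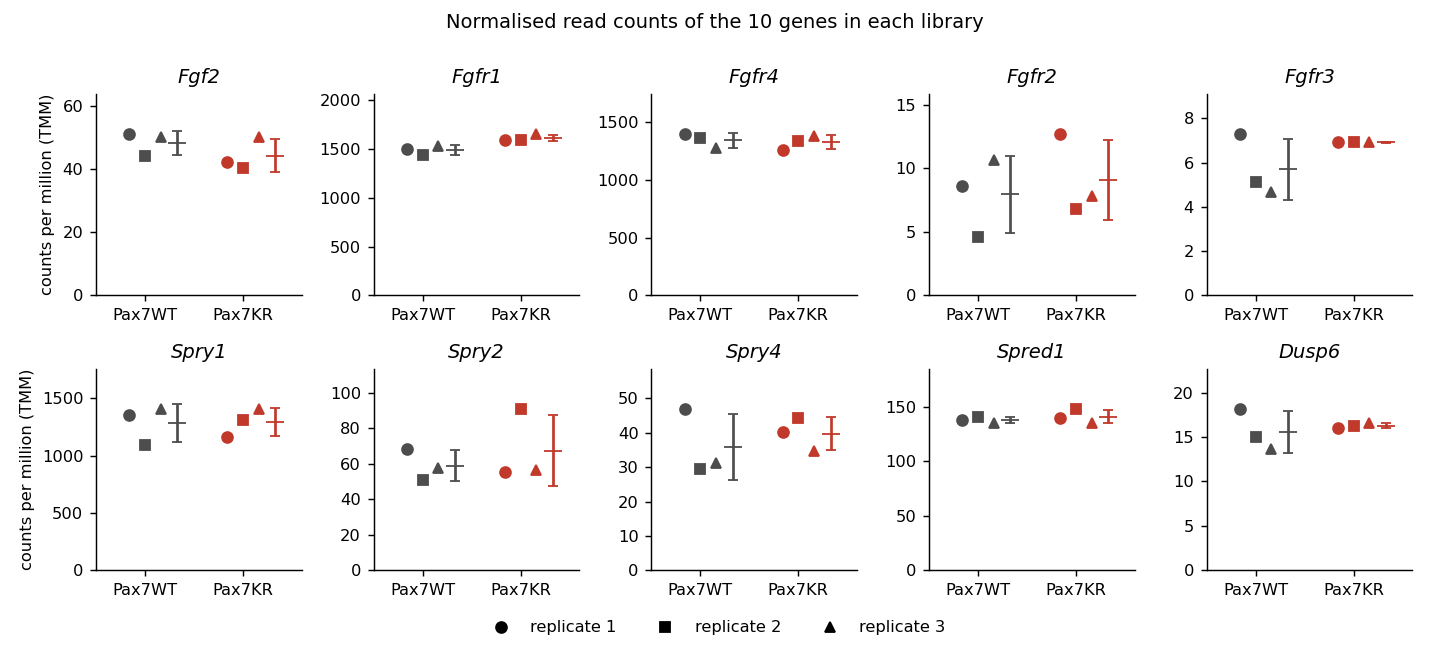
Normalised read counts (y axis, CPM with TMM library sizes, from 0) of each gene in each library, with the mean and SD of 3 libraries beside the points. *Fgfr1* is the gene whose groups do not overlap, and replicate 2 of Pax7KR stands apart in *Spry2*.

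Spread between libraries of 1 genotype differed between the genes, and its part in the width of the intervals was not tested. The coefficient of variation of CPM in Pax7WT was 1.78% for *Spred1*, 3.36% for *Fgfr1* and 4.70% for *Fgfr4*, and 13.0% for *Spry1*, 26.6% for *Spry4* and 38.4% for *Fgfr2*. In Pax7KR it was 4.40%, 2.08% and 4.65% for *Spred1*, *Fgfr1* and *Fgfr4*, 9.36% for *Spry1*, 12.2% for *Spry4* and 34.5% for *Fgfr2*. The remaining genes, in Pax7WT and Pax7KR, had 7.86% and 11.9% (*Fgf2*), 24.3% and 0.335% (*Fgfr3*), 15.0% and 29.9% (*Spry2*), and 14.9% and 1.54% (*Dusp6*). *Spry1*, though read as often as the receptors, varied more than either of them in both genotypes.

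The genes around the 10 were counted in lists by role. None of their genes passed the adjusted cut-off by edgeR or DESeq2. Of 21 other FGF ligand genes, 7 passed the filter, 3 of them higher in Pax7KR and 4 lower, and the median of their log2 fold changes was -0.18. *Fgf11*, whose product stays inside the cell, was the highest at 36.4 TPM with a log2 fold change of 0.05. *Fgf12*, another intracellular member, was read at 13.3, 8.81 and 12.1 CPM in Pax7WT and 5.95, 7.33 and 9.55 CPM in Pax7KR, a log2 fold change of -0.59 (SE 0.20, edgeR p 0.0118 unadjusted, 0.992 adjusted). Its groups overlapped, and with transcript length as an offset the log2 fold change of *Fgf12* by DESeq2 was 0.0128, with mean levels of 5.87 ± 2.44 TPM in Pax7WT and 6.17 ± 2.64 TPM in Pax7KR (SD). In this list 5 ligand genes were at 0 in every library.

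Of 22 genes for receptor partners and heparan sulphate, 21 were tested, 7 higher and 14 lower in Pax7KR, with a median of -0.05. *Sdc4*, a heparan sulphate proteoglycan of the satellite cell surface, was the highest at 439 TPM with a log2 fold change of 0.10. *Flrt2*, for a membrane protein that can bind FGF receptors, was read at 53.6, 47.7 and 57.6 CPM in Pax7WT and 64.0, 71.6 and 56.5 CPM in Pax7KR, a log2 fold change of 0.27 (SE 0.10, edgeR p 0.0142 unadjusted, 0.992 adjusted). The groups overlapped through replicate 3 of each.

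Of 23 adaptor and RAS-ERK genes, all were tested, 17 higher and 6 lower, with a median of 0.05. *Ptpn11*, the phosphatase that links receptors to RAS, was read at 148, 151 and 146 CPM in Pax7WT and 164, 169 and 159 CPM in Pax7KR, without overlap, with a log2 fold change of 0.14 (SE 0.06, edgeR p 0.0257 unadjusted, 0.992 adjusted). At an unadjusted p of 0.05, 2 of the 23 genes of the list were higher, against 2.26% of all tested genes.

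Of 16 other feedback inhibitor genes, 15 were tested, 4 higher and 11 lower, with a median of -0.07. *Errfi1*, an inhibitor of EGF receptors, was the highest at 633 TPM, and it was read at 1033, 850.5 and 1314 CPM in Pax7WT and 703, 1108 and 1156 CPM in Pax7KR, a log2 fold change of -0.11 (SE 0.27). *Rasal2*, for a protein that turns RAS off, was read at 46.7, 34.8 and 46.0 CPM in Pax7WT and 36.5, 36.0 and 34.8 CPM in Pax7KR, a log2 fold change of -0.25 (SE 0.11, edgeR p 0.0328 unadjusted, 0.992 adjusted). Replicate 2 of Pax7WT was as low as the Pax7KR libraries.

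The 14 genes of the list of ERK-responsive targets were all tested, 6 higher and 8 lower, with a median of -0.07. The list includes *Cic*, *Erf* and *Phlda3*, and whether the mRNA of each of its genes follows ERK activity was not tested. At an unadjusted p of 0.05 there were 2 higher and 3 lower genes, against 2.26% and 2.43% of all tested genes. *Spsb1*, for an adaptor of a ubiquitin ligase, was read at 35.2, 32.6 and 35.8 CPM in Pax7WT and 42.5, 47.4 and 43.7 CPM in Pax7KR, without overlap. Its log2 fold change was 0.37 (SE 0.08), with an edgeR p of 0.000511 unadjusted and 0.515 adjusted. *Myc*, the growth-promoting transcription factor gene and the highest of the list at 95.3 TPM, was read at 118, 103 and 114 CPM in Pax7WT and 93.3, 93.3 and 104 CPM in Pax7KR, a log2 fold change of -0.20 (SE 0.07, edgeR p 0.0148 unadjusted, 0.992 adjusted). The other 3 genes, which the rule for naming did not include and which are given as the rest of a count of 5, were *Ets2* at -0.17, *Ccnd1* at -0.28 and *Phlda3* at 0.37.

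**Figure D5:**
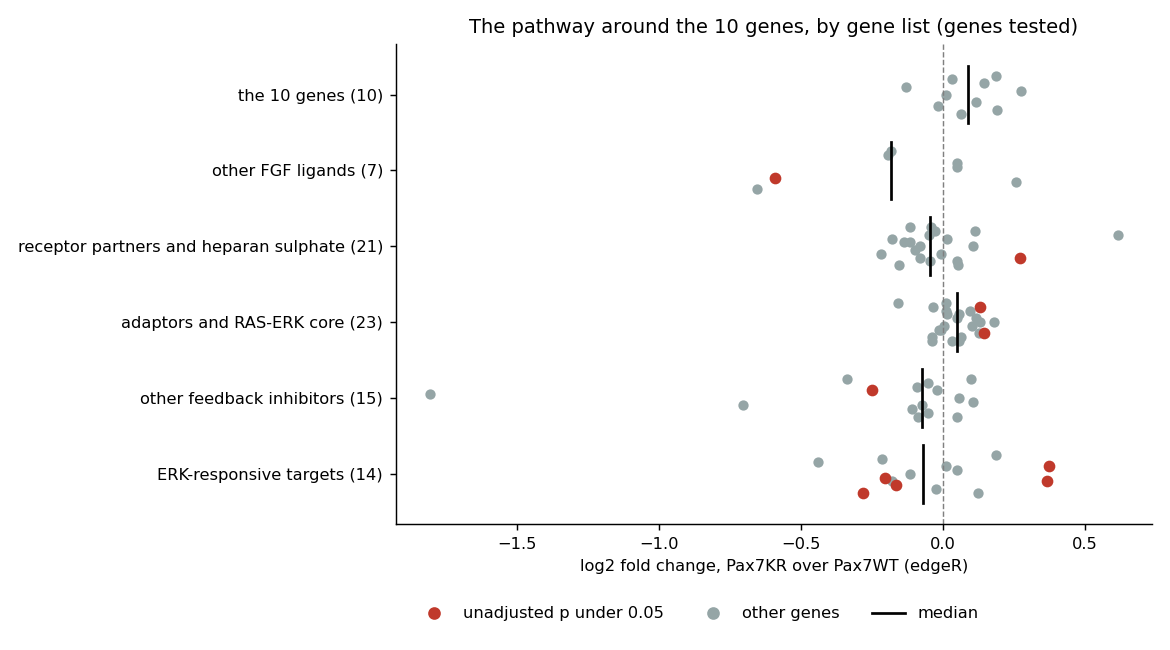
Log2 fold change of Pax7KR over Pax7WT (x axis, edgeR) for every tested gene of each list, with the median as a black line and genes at an unadjusted p under 0.05 in red. The medians lie between -0.18 and 0.09, and no gene passes the adjusted cut-off.

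The genes whose pattern over the 6 libraries was most like that of *Spry1* were, by Pearson r of log2(CPM + 1), *Rab30* (0.989), *Serinc1* (0.986) and *Frs2* (0.984). Replicate 2 of Pax7WT was the lowest library in each of them, as in *Spry1*. For *Dusp6* they were *Phf2* (0.983), *AW554918* (0.978) and *Rnf145* (0.978), highest in replicate 1 and lowest in replicate 3 of Pax7WT. With 9520 genes compared over 6 libraries that share depth and handling, 92 genes had an r above 0.9 with *Spry1* and 78 with *Dusp6*, so these values are a description only.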

How the data were processed

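RNA-sequencing libraries of freshly isolated satellite cells (3 Pax7WT, 3 Pax7KR) were each made from 15 ng of RNA with a directional kit. The authors quantified transcripts with salmon against GENCODE transcripts of GRCm38 with the genome as decoy, and the submitters' processing notes name Salmon 1.3.0 and DESeq2 1.28.1. The deposited values used here are estimated counts, which are not normalized, and TPM, which are corrected for transcript length. The effective lengths, one of the other deposited columns, were used for the length offset. The authors' table of their own comparison (fold changes and p-values) was not used.

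Estimated counts were rounded after summing over the transcripts of a gene. Genes were taken from GENCODE release M21, on the same build, for 139791 of 140992 transcript identifiers, and the 1201 others held 0.606% of the reads. Genes with at least 5 reads in at least 2 libraries were tested with edgeR 4.0.16 (TMM, robust quasi-likelihood F test on genotype, Benjamini-Hochberg adjustment, cut-off 0.1) in R 4.3.3. The SE is the log2 fold change over the square root of F. DESeq2 1.42.0 was an alternative, and the scripts were tested on simulated counts. TPM served to compare genes, and CPM with TMM library sizes to compare libraries. Pairs of libraries differed by a chi-square of 11.0 to 25.2 per gene, so none was counted as a duplicate. The common coefficient of biological variation was 13.8%. Whether salmon used strand is not given in the sources used here.

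The 10 genes and the lists were chosen with earlier results of these data known. The named genes were the 10 genes, the highest by TPM and up to 2 of the smallest unadjusted p under 0.05 of each list, and the 3 nearest in pattern to *Spry1* and to *Dusp6*. Marker lists are given as sums. A gene and a pair of sequences that these rules would include are not reported here.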

Additional observations from a re-analysis of the deposited data

How the results depend on the processing

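None of the 10 genes was called under any of the 15 alternatives, and in 137 of 150 cases a gene kept its direction, with 13 reversed. With the transcript length offset *Fgf2* became 0.10 (DESeq2 0.0988, edgeR 0.0979). With total reads as library size *Fgfr4* became 0.01 (0.0117), where the median of all genes moved to 0.03. The other reversals came from leaving out 1 library, over which the log2 fold change ran from -0.23 to -0.07 for *Fgf2*, 0.09 to 0.14 for *Fgfr1*, -0.13 to 0.44 for *Fgfr2*, 0.15 to 0.50 for *Fgfr3*, -0.0552 to 0.0168 for *Fgfr4*, -0.0948 to 0.0779 for *Spry1*, -0.0848 to 0.31 for *Spry2*, 0.02 to 0.39 for *Spry4*, -0.00233 to 0.0614 for *Spred1* and -0.0273 to 0.19 for *Dusp6*. The number of genes called, 0 by edgeR (803 at an unadjusted p of 0.05), was 30 with DESeq2, 45 with DESeq2 and the length offset, 157 with no filter, and 1 to 32 with 1 library left out, the highest without replicate 3 of Pax7KR. The causes were not tested. It was 0 with RLE factors, total reads, the edgeR length offset, a stricter filter or no robust shrinkage. With the replicate block it was 13. Correlations of deviations were -0.000314, 0.10 and 0.03 for same-numbered libraries, and ran from -0.11 to 0.09 for the other combinations. Deviations from a mean of 3 libraries are not free of each other, so these values cannot show whether the numbers pair the samples. That was not tested. Of 255 list medians 32 moved by more than their spread, among them that of the other FGF ligands, from -0.18 to 0.0128 with DESeq2 and the length offset and 0.12 with no filter. *Fgfr2* and *Fgfr3* had the fewest reads, 82 to 290 per library, and the part of depth in their intervals was not tested.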
